A study of Mus musculus with 2031 samples.

Results

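Astrocytes of the adult mouse cortex were divided by the number of Gfap reads in each cell. Gfap encodes glial fibrillary acidic protein, the main intermediate filament protein of astrocytes. The filament is known as the classical astrocyte marker, yet protein and RNA are low in much of the healthy grey matter, prominent at the pial surface and in white matter, and raised in reactive astrocytes. Among the factors known to act on the gene are BMP signalling, with the Id genes as its immediate targets, signalling through the gp130 receptor and STAT3, Notch, and transcription factors of the NFI and SOX families. The comparison asks what else differs between cortical astrocytes that hold Gfap RNA and those without a read of it.

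Cells came from C57BL/6J mice at postnatal day 56, without treatment. They were sorted one per well with an antibody to the surface protein of Atp1b2, a gene that astrocytes share, and sequenced with Smart-seq2, a full-length method without molecular tags, so that counts are of reads, not of molecules. Suspensions 1C and 2C were each prepared from the cortex of a single mouse, and the 2 mice were littermates. Suspensions 1H and 2H came from the hippocampus, each from a pooled set of littermates. Tissue that looked myelinated was taken away before the cells were freed. The cortical astrocytes used here are the 940 cells, of 2030 whose count files were read, that the study's cell list assigns to the subtypes AST1, AST2 or AST3. In that scheme AST1 is marked by Gfap with Agt, AST2 by Unc13c, and AST3 by Agt with little Gfap. The subtypes are clusters of the same cells, and Gfap was among the genes that describe them.

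Of the 940 cells, 98 in each suspension held at least 10 Gfap counts and are called cells with Gfap. A further 727 had 0 counts and are called cells without Gfap, 76.7% of the cells of 1C and 77.9% of those of 2C. The remaining 17 cells had 1 to 9 counts and were left out. Gfap itself chose the groups, so its values describe the split and were not tested between them. Only the share of cells with Gfap was tested, between regions. Cells of a suspension share a mouse, so raw counts were summed per group and suspension, which gives 4 sums and 2 pairs. No cell name occurred in more than 1 suspension. The sums held 164677629 and 158029999 gene counts with Gfap and 529346905 and 591758731 without.

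The read counts were close to all-or-none. A count of 0 does not show that a cell lacked Gfap RNA, and loss of RNA before sequencing was not tested. In the hippocampus, 27.3% and 24.8% of the AST1 cells of 1H and 2H had 0 counts too. The highest value below the limit was 8 counts and the lowest values above it were 20, 22, 28 and 34 counts, and only 11 of the cells with Gfap had fewer than 100 counts. The cells held 609200 to 3238215 gene counts each in 1C and 615568 to 2918183 in 2C. Gfap lies on chromosome 11 of GRCm38, from 102887336 to 102900912 on the minus strand, inside the span of a predicted noncoding gene, Gm26668, annotated on the other strand. Whether reads were counted by strand is not given in the sources used here.

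On a CPM scale, in which the counts of a sum are divided by its TMM-scaled library size, Gfap summed to 633 in 1C and 800.0 in 2C over the cells with Gfap, and to 0 in both sums without it. Within single cells the level ranged from 11.45 to 2249 CPM in 1C, with a median of 598, and from 10.7 to 5000 CPM in 2C, with a median of 662. No single cell gave more than 7.16% of the reads of a sum. Median levels by subtype were 747 (AST1), 605 (AST2) and 457 (AST3) CPM in 1C and 825, 744 and 578 CPM in 2C, in the same order in both suspensions but with ranges that overlapped widely.

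Gfap was found in 21.7% of the AST1 to AST3 cells of 1C (Wilson 95% interval 18.2 to 25.8%) and in 20.04% of those of 2C (16.7 to 23.8%). Intervals of this kind cover counting error only. By subtype, the mean share over the 2 cortical suspensions was 27.8% ± 7.02 (SD, n = 2) in AST1, 14.4% ± 4.38 in AST2 and 29.9% ± 2.73 in AST3. The scheme describes AST3 as low in Gfap by expression level over cells of both regions, which is another measure than these shares. The mean cortical shares of AST1 and AST3 differed by less than the SD of AST1. That SD rests on 57 AST1 cells of 1C and 55 of 2C. In the hippocampus the shares were 71.4% ± 0.223 in AST1, 37.7% ± 10.9 in AST2 and 53.3% ± 2.95 in AST3. Over the 3 subtypes together, 20.9% ± 1.19 of cortical and 66.3% ± 1.02 of hippocampal cells held Gfap. The difference of 45.4 percentage points had an exact permutation p of 0.333, two-sided. This is the smallest that 2 suspensions per region allow, so the test could not have called any difference. Among 53 mural, endothelial and oligodendrocytic cells of the cortex, types that should lack the gene, none reached 10 counts, which allows a share of up to 5.66%, and 1 had 1 to 9 counts. Of 6 cortical cells listed as microglial, 1 reached 10 counts and 1 had 1 to 9. Over all 59 non-astrocytes of the cortex, 1 (1.7%) reached 10 counts and 3 held any read of Gfap.

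**Figure D1:**
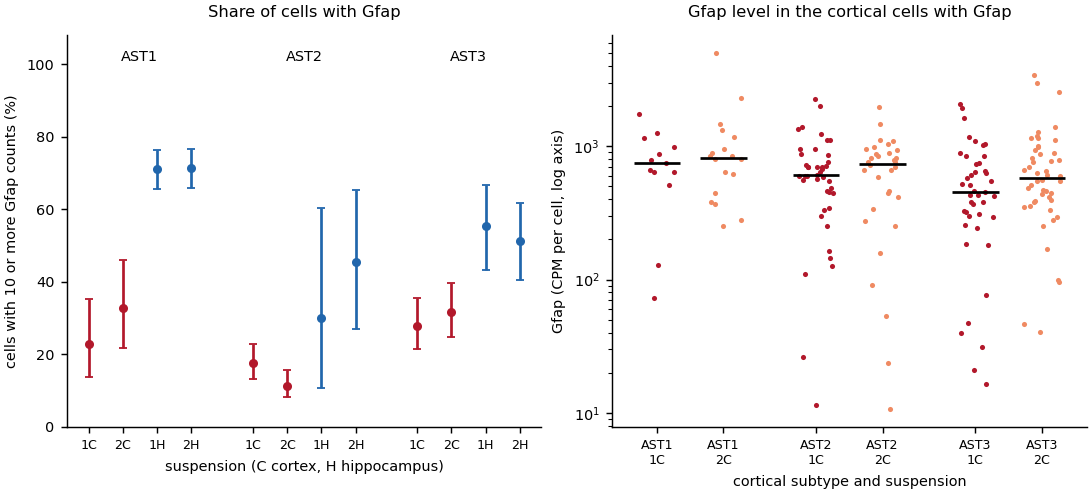
Left, the percentage of cells with 10 or more Gfap counts in each subtype and suspension, with Wilson 95% intervals, cortex in red and hippocampus in blue. Right, Gfap in CPM on a log axis for each cortical cell with Gfap, with a line at the median of the subtype and suspension. Among AST1 to AST3, cortical shares reach 32.7% at most, in AST1 of 2C, and levels span 10.7 to 5000 CPM.

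The groups differed in their subtypes. AST3 made up 43.9% of the cells with Gfap in 1C and 48.98% in 2C, against 31.8% and 26.5% of the cells without. AST2 made up 42.9% and 32.7% of the cells with Gfap, against 55.8% and 63.8% of those without. AST1 was a small part of each group, at 13.3% and 18.4% with Gfap and 12.4% and 9.71% without. The part of this mix in the values below was examined within AST3, in pairs of each subtype, and by weighting.

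With the subtypes mixed, no gene passed the test. Of 16752 genes tested with edgeR's quasi-likelihood test in pairs, 0 (0%) had a Benjamini-Hochberg adjusted p under 0.05. At an unadjusted p under 0.05 there were 570 (3.4%), 0.967% higher and 2.44% lower with Gfap. The 2 pairs leave 1 residual degree of freedom. DESeq2 on the same sums called 410 genes, 0.484% of those tested on the higher side and 1.96% on the lower side, while limma on mean CPM called 0, with 1191 genes at an unadjusted p under 0.05. When only the 6699 genes with a mean of at least 20 CPM were tested, an alternative added after the data had been seen, edgeR called 4 genes, and 0 with the subtypes held apart in pairs. Apoe, Id3 and Clu were higher with Gfap and Malat1 was lower, with adjusted p of 2.7e-04, 0.0049, 0.0083 and 5.2e-04. The genes below are those leading by p among genes of that level with the same direction in both suspensions, 12 in each direction, and each had an adjusted p of 0.819 in edgeR over all genes.

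Apoe, on chromosome 7 from 19696109 to 19699188, encodes the main lipid carrier that astrocytes secrete. It stood at 29751 and 31399 CPM with Gfap (1C, 2C) and at 25645 and 26371 CPM without. The groups did not overlap, and the difference was 17.5% (log2 0.23, SE 0.02). Clu, which encodes the secreted chaperone clusterin, stood at 14718 and 15120 CPM with Gfap and 12512 and 13274 CPM without, a difference of 15.8% (log2 0.21, SE 0.03). Cst3, the secreted protease inhibitor cystatin C, had 10839 and 10519 CPM against 9827 and 9570 CPM, 10.1% higher with Gfap. With the subtypes held apart in pairs, the log2 differences of Apoe, Clu and Cst3 were 0.04, -0.004 and -0.02. RNA of these 3 secreted products was read in every cell of both groups. Apoe and Clu were higher in 15 of 16 plates, and Cst3 in 11 of 16. Here and below, plates divide the cells of the same 2 mice on which the genes were chosen, so these counts are a description and not replicates.

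Id3, on chromosome 4 from 136143497 to 136145755, encodes an inhibitor of basic helix-loop-helix transcription factors and is a classical target of BMP signalling. Its levels were 830.2 and 730.3 CPM with Gfap and 539.9 and 477 CPM without, 53.5% higher (log2 0.62, SE 0.07) and higher in 13 of 16 plates. Within AST3 the log2 difference was 0.15. Weighting to the same subtype mix took the log2 difference of mean CPM from 0.54 to 0.30. After each cell had been thinned to 500000 counts, Id3 was read in 62.2% and 64.3% of the cells with Gfap and in 54.3% and 51.4% of those without.

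Malat1, a long noncoding RNA of the nucleus on chromosome 19 from 5795690 to 5802672, was the leading gene in the other direction. It had 9657 and 8748 CPM with Gfap and 11724 and 10661 CPM without, 17.8% lower (log2 -0.28, SE 0.03). It was lower with Gfap in each of the 16 plates. Within AST3 its log2 difference was -0.10, and it turned to 0.064 without 1C. Reads outside annotated exons were lower with Gfap as well. Their median share per cell was 11.7% and 10.4% with Gfap against 12.9% and 12.2% without, and the part of this in the Malat1 values was not tested.

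Dkk3, a secreted member of the Dickkopf family, had 647 and 625 CPM with Gfap and 443 and 453 CPM without (log2 0.51, SE 0.08). Nnat, an imprinted gene for a small membrane protein of the endoplasmic reticulum, had 202.8 and 160.9 CPM against 112.8 and 83.9 CPM (log2 0.89, SE 0.14), and was higher in all 16 plates. In 2C it was read in 55.1% of thinned cells with Gfap and in 31.2% of those without. Naaa, a lysosomal amidase of lipid amides, was 33.6% higher, but its log2 difference of mean CPM went from 0.36 to 0.20 on weighting to the same subtype mix. Within AST3 it ran from 0.11 to 0.46 with 1 suspension left out. Phyhipl was 25.9% higher. Phyhipl had 907 and 853 CPM with Gfap against 722 and 676 CPM without.

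The 4 other genes on the higher side were read in few cells. Lmo1 encodes a LIM-domain cofactor of transcription and lies on chromosome 7 from 109138572 to 109175207. It had 70.8 and 68.6 CPM with Gfap and 22.9 and 19.1 CPM without, a log2 difference of 1.73 (SE 0.25). It was read in 23.5% and 20.4% of thinned cells with Gfap against 9.25% and 6.82% without. Ganc, a neutral glucosidase, had a log2 difference of 1.45, Pus7, a pseudouridine synthase, 1.50, and Ift122, a part of the transport machinery of cilia, 1.26. Each of these was read in under 22% of the thinned cells of every group.

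The lower side, Malat1 apart, held genes of 10.7 to 185 CPM. Miga2, which acts in mitochondrial fusion, had 51.1 and 35.8 CPM with Gfap against 109.8 and 104.4 CPM without (log2 -1.32, SE 0.23). Pitrm1, a protease that clears peptides inside mitochondria, had 27.7 and 24.9 CPM against 70.5 and 57.5 CPM. Pqlc2 and Mfsd1, both transporters of the lysosome membrane, had log2 differences of -1.001 and -0.96, and Ttc4, a cochaperone with TPR repeats, -0.85. Sptlc2, a subunit of the first enzyme of sphingolipid synthesis, had a log2 difference of -1.32, and the kinase gene Braf one of -1.62. In AST1 the mean of Braf over cells was 0 CPM with Gfap against 147.1 CPM without in 1C. In 2C it was 41.1 against 0.338 CPM, the other way. Fam49b, a partner of the small GTPase Rac1, had -1.13, and the zinc finger gene Zfp106 -1.54. Pqlc1 had -1.69 and the predicted gene Gm20300 -1.92. The sums with Gfap rest on fewer cells, and low genes leaned to the lower side as a whole. The median log2 difference was -0.77 over 2687 genes of 1 to 5 CPM, -0.16 over 3385 genes of 5 to 20 CPM and -0.01 over the 6699 genes of at least 20 CPM.

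**Figure D2:**
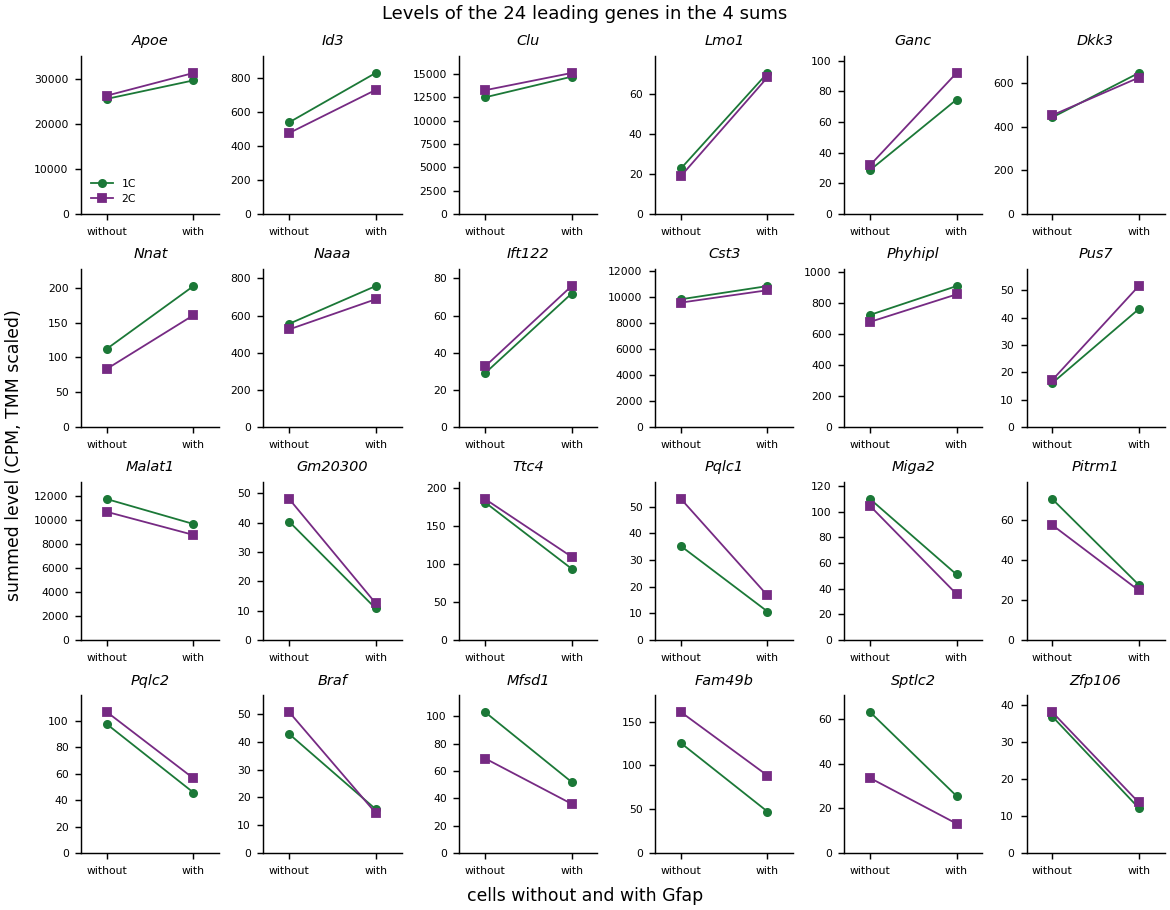
Level in CPM of the 24 leading genes in the sums of cells without and with Gfap, a line for each cortical suspension, with axes starting at 0. Apoe, Clu, Cst3 and Malat1 differ by 10.1 to 17.8%, while genes such as Lmo1 and Gm20300 differ several-fold at low level, and both suspensions move alike because the genes were chosen for that.

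The gene lists were read against all genes of at least 20 CPM, of which 26% were higher with Gfap in both suspensions and 25.3% lower in both. Over all genes tested these shares were 20.8% and 30.6%. None of the members of any list passed edgeR's test adjusted over all 16752 genes. Other settings did call list members, among them Apoe, Id3, Slc1a3 and Agt by DESeq2, and Apoe, Id3 and Clu by edgeR on the genes of at least 20 CPM.

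With the subtypes mixed, the list of genes described for pial and white matter astrocytes leaned to the cells with Gfap. Of 14 members of at least 20 CPM, 10 were higher in both suspensions and 0 lower in both, with a median log2 difference of 0.42 against -0.01 over all genes of that level. The lean was smaller with the subtypes held apart. Within AST3, 8 of 13 were higher in both suspensions and 1 lower, with a median of 0.15 against -0.03 over all genes, of which 1630 of 6698 were higher and 1748 lower in both, and in the fit by subtype the median was 0.06 against -0.16. Besides Id3 they included Sparc, a matrix protein, at 140.2 and 122.4 CPM with Gfap against 89.9 and 80.8 CPM without. Sparc was higher in 4 of 6 pairs of subtype and suspension. In 2C its mean over cells was lower with Gfap in AST1, at 80 against 242.4 CPM, and in AST2, at 27.7 against 73.5 CPM. In AST3 of 2C it was higher, at 181.7 against 66.3 CPM. Agt, the precursor of angiotensin, had 329.8 and 355.3 CPM with Gfap against 258.8 and 187.1 CPM. The log2 difference of Agt was 0.35 without 2C and 0.92 without 1C. Il33, a nuclear alarmin cytokine, had 332.5 and 397.7 CPM against 277.2 and 312.1 CPM. The study ties Il33 to AST3 of the deep layers, and Agt marks AST3 too, so neither is particular to pial or white matter astrocytes. AST3 was a larger part of the cells with Gfap than of those without. The study also ties Id3 and Agt to AST1 of the same cells, so the lean of this list is no independent result. Id3 is counted again in the list of BMP and Id genes below. The water channel gene Aqp4 had 1434 and 2030 CPM against 1368 and 1301 CPM, so the size of its difference was set by 2C. Myoc, a known marker of the glia limitans, was at 88.3 CPM in the sum of 2C with Gfap, with all of its reads there from 1 cell, and was not read in the 98 cells of 1C with Gfap. Vim, the second filament protein of reactive astrocytes, had 34.5 and 49.5 CPM with Gfap and 30.1 and 38.4 CPM without, with 40.2% of the reads of the 2C sum from 1 cell. Within AST3 the direction was the other way in both suspensions, with a mean over cells of 29.4 and 14.9 CPM with Gfap against 37.8 and 73.9 CPM without. The other intermediate filament genes were low or not tested, apart from the lamin gene Lmna at 22.4 and 25.99 CPM with Gfap against 28.3 and 34.1 CPM without. Nes did not pass the filter, and Synm was read in 2 cells with Gfap of each suspension.

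Of the genes described for grey matter astrocytes of the upper layers, 3 of 13 were higher in both suspensions and 7 lower in both with the subtypes mixed, with a median of -0.13. The list holds genes that the study describes as enriched in AST2 of the same cells, among them Chrdl1 and Unc13c. AST2 was a smaller part of the cells with Gfap, so this lean is no independent result. Within AST3, 2 of 13 were higher and 3 lower, with a median of -0.02 against -0.03 over all genes, so this lean was not seen there. In the fit by subtype the median was -0.21 against -0.16. Chrdl1, a secreted antagonist of BMPs that acts on synapse maturation, had 284.7 and 262.2 CPM with Gfap against 378.6 and 411.7 CPM without (log2 -0.53, SE 0.11). Unc13c, the marker of AST2, had 21.02 and 23.4 CPM against 38.1 and 71.5 CPM. Lrtm2 went against the list, with a log2 difference of 0.35 (SE 0.11).

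Among the pathways known to act on Gfap, the list of BMP receptors, SMADs and Id genes had 6 of 9 members higher in both suspensions, 0 lower in both and a median of 0.21. Within AST3, 5 of 9 were higher and 0 lower, with a median of 0.15, and in the fit by subtype the median was 0.09. The medians over all genes were -0.03 and -0.16. With the subtypes mixed, the 6 were Id1 to Id4 and the receptor genes Bmpr1b and Bmpr2. Id4 had 218.2 and 223.1 CPM with Gfap against 151.7 and 147.9 CPM without (log2 0.56), Id2 had 1144 and 1232 CPM against 1049 and 1007 CPM, and Id1 had 62.9 and 103.7 CPM against 55.8 and 35.5 CPM. Bmpr1b had a log2 difference of 0.17, and the ligand gene Bmp7 differed in sign between the suspensions. The list of gp130 receptors, JAK, STAT and SOCS genes had 2 of 7 members higher and 3 lower, with a median of -0.004. Within it Osmr, a receptor subunit for oncostatin M, had 39.3 and 28.1 CPM against 11.2 and 15.3 CPM, read in 9 cells with Gfap of each suspension, and Stat3 had 105.2 and 161.5 CPM against 112.2 and 103.5 CPM. The Notch list had 3 of 10 higher and 2 lower, and the list of NFI, SOX and other glial transcription factors 4 of 18 higher and 2 lower, with medians of 0.01 and 0.00.

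Genes of injured astrocytes were near the limit of reading. Of 12 pan-reactive genes 8 passed the filter and 2 reached 20 CPM, Osmr and Vim. Of the 12 genes of each of the A1 and A2 lists, 2 and 0 reached it. H2-D1, a class I histocompatibility gene of the A1 list, had 64.2 and 39.95 CPM with Gfap against 34.03 and 20.7 CPM without, with 34.9% and 40.7% of the reads with Gfap from a single cell each. Serpina3n, of the pan-reactive list, had 8.997 and 2.10 CPM with Gfap against 11.1 and 17.4 CPM without.

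Among functional lists, secreted regulators of synapses and matrix had 11 of 21 members higher in both suspensions and 1 lower, with a median of 0.11. Within AST3, 14 of 21 were higher and 2 lower, with a median of 0.10, but the median was -0.001 in the fit by subtype, against -0.16 over all genes. In the hippocampus 7 were higher and 10 lower, with a median of -0.005, while 1765 of all 6699 genes were higher there in both suspensions and 1739 lower. Sparcl1, which promotes synapse formation, had 7342 and 7978 CPM with Gfap against 6589 and 6517 CPM, a log2 difference of 0.22. Glycolysis, lactate and glycogen genes had 12 of 23 higher and 3 lower with a median of 0.09, which was 0.03 within AST3, among them Aldoc at 15762 and 15599 CPM against 14704 and 14273 CPM. Potassium channel and sodium pump genes had 2 of 11 higher and 7 lower with a median of -0.15, and the same numbers with a median of -0.27 within AST3. By subtype the median was -0.09 against -0.16 over all genes, and in the hippocampus 4 were higher and 4 lower, with a median of 0.03. Kcnk1, a potassium leak channel, had 959.7 and 965 CPM with Gfap against 1078 and 1185 CPM, and Atp1b1, a beta subunit of the sodium pump, 522 and 548 CPM against 619.8 and 764 CPM.

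Connexins, aquaporin and endfoot genes had 4 of 14 higher and 5 lower. The dystroglycan gene Dag1 had 367.8 and 392.9 CPM with Gfap against 295.4 and 305.4 CPM, while the connexin gene Gjb6 had 1636 and 1821 CPM against 1805 and 2022 CPM. Glutamate uptake and glutamine synthesis genes had 4 of 7 higher and 1 lower, led by the transporter gene Slc1a3 at 9101 and 9665 CPM against 8340.0 and 8932 CPM. Glutamate and GABA receptors and transporters had 1 of 12 higher and 4 lower, but 3 higher and 3 lower within AST3. Lipid transport and cholesterol synthesis genes split evenly, at 7 of 20 higher and 9 lower, with Apoe and Dbi, an acyl-CoA binding protein, on the higher side. The 3 metallothionein genes were higher in both suspensions by log2 differences of 0.01 to 0.12. In the fit by subtype their median was -0.04 against -0.16 over all genes. Mt1 was lower with Gfap in 5 of 6 pairs of subtype and suspension, while Mt2 and Mt3 were higher in 4 and 5. The actin and filament partners had 5 of 13 higher and 3 lower, ribosomal protein genes 18 of 64 higher and 16 lower, the mitochondrial genome 1 of 7 higher and 3 lower, immediate early genes 3 of 11 higher and 2 lower, glucocorticoid response genes 1 of 8 higher and 2 lower, and neural stem cell genes 1 of 2 higher. Within AST3, immediate early genes had 1 of 11 higher and 3 lower, with a median of -0.29 against -0.03 over all genes. By subtype their median was -0.62 against -0.16.

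**Figure D3:**
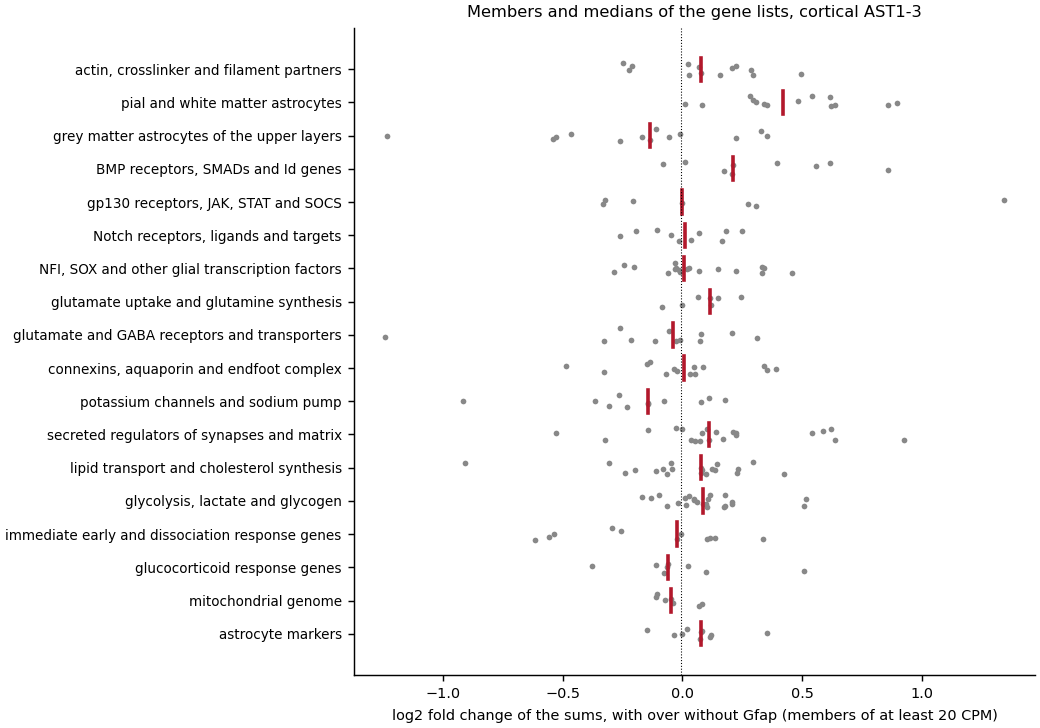
Log2 difference of the summed level, with over without Gfap, for the members of at least 20 CPM of each gene list with 5 or more such members, ribosomal proteins and markers of other cells apart. Points are genes, red bars are list medians and the dotted line is the median of all genes of that level. The pial and white matter list has the highest median of those drawn, at 0.42, with the subtypes mixed. It holds genes that the study ties to subtypes of the same cells.

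Within AST3, where 43 cells of 1C and 48 of 2C had Gfap, no gene passed either. Of 14049 genes, 0 (0%) were called by edgeR and 2.44% had an unadjusted p under 0.05, while DESeq2 called 1763 and limma 0. The 24 leading genes all kept their direction in the fit of AST3, which is no independent result, since AST3 cells are a large part of the sums they were chosen on. Apoe had a log2 difference of 0.17 (SE 0.04) and Clu of 0.15 (SE 0.06), while Id3 had 0.15 (SE 0.12) against 0.62 with the subtypes mixed. Without 2C and without 1C, Id3 had 0.042 and 0.26 and Clu 0.24 and 0.071, so the size within AST3 turned on 1 suspension. Lmo1 had 1.77 and Nnat 0.65. Malat1 had -0.10 and differed in sign between the suspensions, at 7326 CPM with Gfap against 8780.0 CPM in 1C and 7328 against 7009 CPM in 2C.

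Among the genes leading within AST3 were Pafah1b1, a regulator of the motor protein dynein, at 75.5 and 79.2 CPM with Gfap against 18.8 and 19.7 CPM without, and Pde8b, a cyclic AMP phosphodiesterase, with a log2 difference of -1.35 (SE 0.24). Rptor, a subunit of the mTORC1 complex, had 92.1 and 38.3 CPM against 15.0 and 9.49 CPM. Zxdc, Zfp975, Pus7 and Lmo1 were also on the higher side, and Pqlc1, Clic4, Nrbp1, Fkbp14 and 2610021A01Rik on the lower side. The noncoding gene 2610021A01Rik had 0.171 and 0.756 CPM with Gfap against 46.9 and 47.4 CPM, and Pqlc1 had 0.145 and 0.173 CPM against 56.7 and 38.97 CPM. Over AST1 to AST3 both were read in at most 8.14% of the cells of any group, and they were the 2 genes called when only genes of at least 20 CPM were tested. Agt, which marks AST3 and AST1, had a log2 difference of 0.70 within AST3 (SE 0.20), 0.43 without 2C and 0.97 without 1C.

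With each subtype of each suspension as its own pair, 6 pairs in all, edgeR again called 0 of 12377 genes (0%), with 3.02% at an unadjusted p under 0.05. Pairs of 1 suspension share a mouse, so p-values of this fit are too small, and its SEs rest on 2 mice. The directions over the 6 pairs are a description, since the leading genes were chosen for their direction on sums of the same cells. Nnat, Phyhipl, Ganc and Ift122 were higher with Gfap in 6 of 6 pairs. Ttc4, Miga2, Pqlc2, Sptlc2, Zfp106 and Gm20300 were lower in 6 of 6. Of all genes of at least 20 CPM, 3.09% had the same direction in 6 of 6, and 1.97% were lower in 6 of 6, and nothing is read from the leading genes against these shares. Phyhipl had a fitted log2 difference of 0.32 (SE 0.06). Apoe, Id3 and Cst3 were higher in 4 of 6 pairs and Clu in 3. The fitted log2 difference of Id3 was 0.37. Malat1, Pitrm1, Braf and Fam49b were lower in 5 of 6, and Pqlc1 and Mfsd1 in 4. Among list members, Id4, Bmpr1b, Dag1, Dbi, Aldoc and Pkm were higher, and Chrdl1, Kcnn2, Tyk2 and Col1a2 lower, in 6 of 6 pairs. These are picked from many members, and nothing is read from them against the shares over all genes. Agt differed by subtype. In AST1 of 2C its mean over cells was 279.6 CPM with Gfap against 549 CPM without, and 1C was lower with Gfap as well. In AST3 it was 439 and 437 CPM against 351.8 and 260.1 CPM.

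The mix of subtypes was also held equal by weighting the cells without Gfap to the subtypes of the cells with Gfap, on the log2 scale of mean CPM plus 1, an alternative added after the data had been seen. The difference of Apoe went from 0.21 to 0.09, that of Clu from 0.19 to 0.06, that of Cst3 from 0.11 to 0.02, that of Id3 from 0.54 to 0.30, that of Nnat from 0.82 to 0.45, that of Agt from 0.45 to 0.16 and that of Malat1 from -0.31 to -0.18. The values before and after weighting were 1.59 and 1.46 for Lmo1, 1.32 and 1.54 for Ganc, 0.30 and 0.30 for Phyhipl and -1.27 and -1.28 for Miga2. All of these genes kept their sign. No gene was called in either form.

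**Figure D4:**
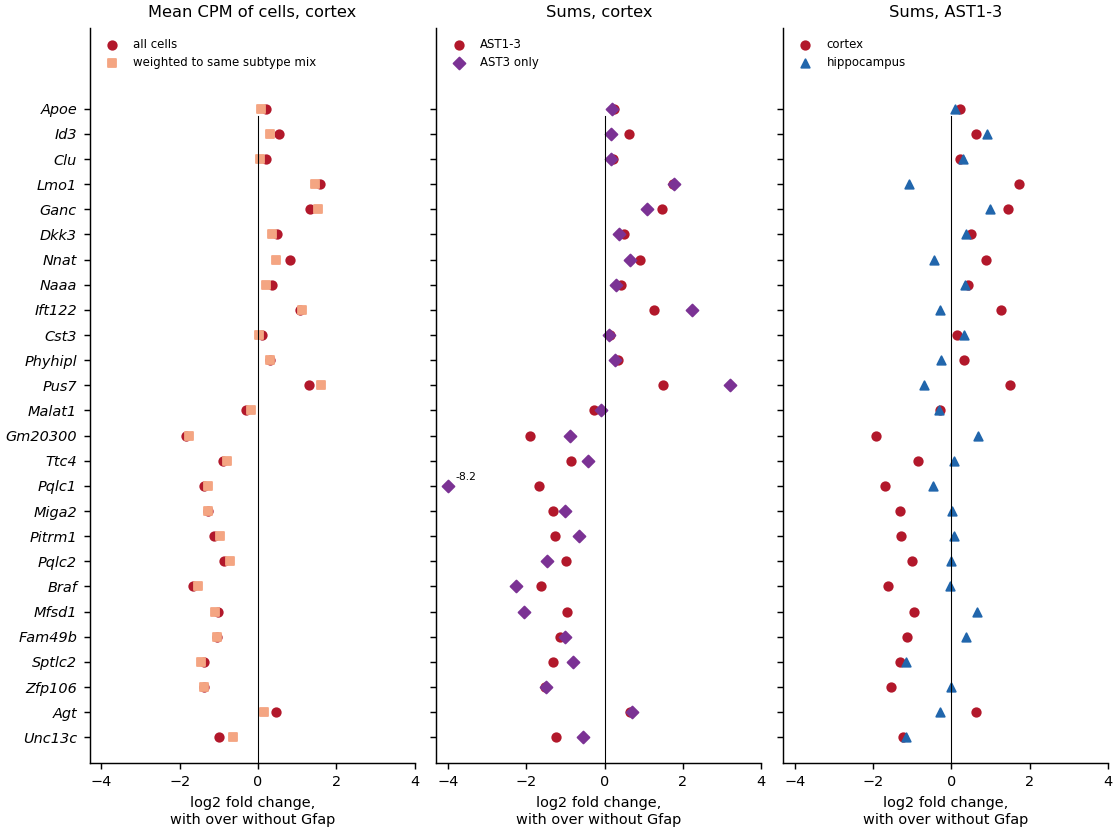
Log2 difference, with over without Gfap, of the 24 leading genes and of Agt and Unc13c. Left, mean CPM of cells before and after weighting to the same subtype mix, centre, sums of AST1 to AST3 and of AST3 alone, and right, sums in cortex and in hippocampus. Pqlc1 in AST3 is drawn at the edge with its value of -8.2. Some genes have like values in both regions (Id3, Clu, Malat1) and others opposite signs (Lmo1, Nnat, Phyhipl), with none called by edgeR for a difference between regions.

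The same split was made in the 2 hippocampal suspensions, in a fit of all 8 sums. Of 15585 genes, 0 (0%) were called there, with 840 (5.39%) at an unadjusted p under 0.05, while DESeq2 called 619. With only genes of at least 20 CPM, 6 genes were called, and Id3, Clu and Malat1 were among them with the direction they had in the cortex. Cst3 was higher and Mfge8 lower with hippocampal Gfap, and Itih3 was the sixth. Id3 had 871 and 619 CPM with Gfap in 1H and 2H against 391 and 388 CPM without (log2 0.92, SE 0.14). Malat1 had 9611 and 10068 CPM against 12123 and 12472 CPM (log2 -0.32). Vim, with 87.8 and 80.6 CPM against 31.7 and 39.2 CPM, had a log2 difference of 1.25 in the hippocampus and 0.28 in the cortex.

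Of the 12 genes leading on the higher side in the cortex, 7 were higher in the hippocampus too, and of the 12 on the lower side, 6 were lower. Nothing is read from these counts. The difference between regions was tested itself, and 0 of 15585 genes (0%) passed, with 787 (5.05%) at an unadjusted p under 0.05, while DESeq2 called 595. Besides Lmo1 and Phyhipl, the genes leading in that test on the side of the cortex were Mfge8, a bridging protein of phagocytosis, Luzp2, Spon1 and Fancc. On the other side were Arhgap12, Gm20300, Arpp21, Clcn3, Atp1b1 and Haus3. Spon1, a secreted matrix protein, had log2 differences of 0.10 in the cortex and -1.18 in the hippocampus, and Atp1b1 -0.36 and 0.43. Il33 and Agt, on the higher side in the cortex, had -0.71 and -0.29 in the hippocampus. The share of AST3 differed in the opposite way in the hippocampus. It was 15.5% and 16.9% of the cells with Gfap there, against 26.4% and 31.6% of those without. AST1 was a larger part of the cells with Gfap in both regions, in the hippocampus 83.2% and 79.03% against 67.3% and 58.1%. AST2 was a smaller part in both, in the hippocampus 1.29% and 4.03% against 6.36% and 10.3%. The part of the subtype mix in the regional values was not tested. Region, litter and the pooling of animals cannot be told apart here, since the study took cortex and hippocampus from different litters.

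Several cell measures differed between the groups in both suspensions. The median number of genes read per cell was 2507 and 2313 with Gfap against 2248 and 2136 without, and after thinning 2333 and 2129 against 2077 and 1971. Median gene counts were 1689716 and 1565594 against 1514466 and 1485738, and the ratio of gene counts to counts of the added ERCC spike-in RNAs was 28.1 and 26.4 against 23.1 and 22.6. The median share of counts from the mitochondrial genome was 3.32% and 3.48% against 3.71% and 3.75%. Each difference had an exact sign-flip p of 0.5, two-sided, the smallest that 2 pairs allow. Within AST3 the genes read after thinning were 2595 and 2388 against 2367 and 2355, while gene counts and the ERCC ratio were higher with Gfap in 1C and lower in 2C. The part of these measures in the gene differences was not tested. The fit on thinned cells gave log2 differences of 0.23 for Apoe, 0.59 for Id3, 0.20 for Clu and -0.29 for Malat1, within 0.04 of those on all reads.

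Markers of other cells are given as summed levels, 1C before 2C. Endothelial markers summed to 0.121 and 0.0127 CPM with Gfap and to 5.70 and 3.17 CPM without, with Cldn5, Ly6c1 and Tek at 0 in both sums with Gfap. Microglial markers summed to 0.407 and 18.2 CPM against 27.6 and 15.4 CPM, with Csf1r and Tmem119 at 0 in both sums with Gfap. Neuronal markers summed to 19.4 and 40.2 CPM against 12.4 and 18.5 CPM, and ependymal markers to 26.1 and 16.7 CPM against 19.7 and 19.3 CPM. Fibroblast markers summed to 35.9 and 12.4 CPM against 45.7 and 62.8 CPM, with 5 and 4 of 7 markers at 0 in the sums with Gfap and also in those without. Mural markers, mostly Pdgfrb, summed to 159.9 CPM with and 159.1 CPM without Gfap in 2C and were lower with Gfap in 1C, oligodendrocyte markers, mostly Cnp, to 548 and 429.9 CPM against 439 and 455 CPM, and precursor markers, mostly Olig1, to 233.9 and 237.3 CPM against 235.2 and 235.1 CPM. The 10 astrocyte markers summed to 44405 and 46555 CPM with Gfap and 43820 and 43770 CPM without, and all 10 were read in each of the 4 sums.

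Every plate held both groups. The share of cells with Gfap ran from 11.7 to 31.6% over the 8 plates of 1C and from 13.6 to 30.2% over the 8 plates of 2C. Among the cells with Gfap, the level of Gfap had weak relations to the levels of the 24 leading genes. Spearman's rho over the 98 cells of a suspension, which share a mouse, ran from -0.24 to 0.20, and its sign was the same in both suspensions for 13 of the 24 genes.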

How the data were processed

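Single cells of 2 cortical and 2 hippocampal suspensions were analysed. Per the labels and the study's methods, the authors aligned Smart-seq2 reads to GRCm38 with STAR 2.5.2b, and HTSeq gave the read number of each gene. Deposited values are raw counts, from which 92 ERCC spike-ins and reads outside genes were kept apart when library sizes were taken. Subtypes were those of the study's list. Positions are from Gencode, with 49326 of 49671 identifiers matched.

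Counts were summed by Gfap group and suspension and tested with edgeR 4.0.16 (TMM, its low-count filter, robust quasi-likelihood fit, suspension as block), Gfap itself left out. The block follows from cells of the same mice. Deviations of the paired sums correlated at r = 0.0258 over 6700 genes. DESeq2 1.42.0 and limma 3.58.1 were alternatives, beside other filters, Gfap limits of 1 and 100 counts, thinning to 500000 counts and leaving out suspensions. Fits were also run on simulated data, where most changed genes were not called. Some unchanged genes were called there in the fits with subtypes mixed and within AST3. Named genes are the 12 leading by p in each direction (6 for AST3 and for regions), at 20 CPM or more and, within the cortex, alike in both suspensions, list members, Agt, Unc13c and Slc1a3. Plates counted had at least 3 cells of each group. SE is the standard error of a log2 difference. Members and lists were chosen with earlier results of these data known.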

Additional observations from a re-analysis of the deposited data

Results flagged for a closer look

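Of the 24 genes leading in the cortex, 7 had the opposite direction in both hippocampal suspensions. The log2 differences, cortex first and hippocampus second, were 1.73 and -1.09 for Lmo1, 0.89 and -0.45 for Nnat, 0.33 and -0.27 for Phyhipl, 1.50 and -0.69 for Pus7, -1.92 and 0.69 for Gm20300, -0.85 and 0.069 for Ttc4 and -0.96 and 0.65 for Mfsd1. The test of the difference between regions gave each of them an adjusted p of 0.923 in edgeR, with 2 suspensions per region, so none is shown to differ. Of all 6699 genes of at least 20 CPM, 1765 were higher and 1739 lower with Gfap in both hippocampal suspensions. Nothing is read from the number of 7 genes against these shares. In hippocampal cells Lmo1 had 17.4 and 22.6 CPM with Gfap against 36.4 and 48.8 CPM without, and Phyhipl had 716 and 731 CPM against 844 and 904.7 CPM.

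Gfap was also read in cells outside the comparison. Of the 33 cells of 1C that the copy of the cell list lacks, 8 held at least 10 counts, a share of 24.2% (Wilson 95% interval 12.8 to 41.02%). Of the 6 cortical cells listed as microglial, 1 held 1161 Gfap counts.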

How the results depend on the processing

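With 2 suspensions per region the fits had 1 to 5 residual degrees of freedom, so a gene that was not called is not shown to be alike in both groups. PCR reads are not molecules, and the sums with Gfap rest on 98 cells each, or 43 and 48 within AST3.

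Under 42 of 51 alternatives the count of called genes stayed at 0. DESeq2 called 410 genes in the cortex, 1763 within AST3, 619 in the hippocampus and 595 for the difference between regions. With at least 50 CPM in 2 sums edgeR called 3 in the cortex (Apoe, Id3, Malat1) and 4 within AST3. With a mean of at least 20 CPM, added after the data had been seen, it called 4, 2 and, in the hippocampus, 6, but 0 by subtype and 0 between regions. Without the replicate block it called 0 in the cortex, within AST3, by subtype and between regions, with 1563 genes against 570 at an unadjusted p under 0.05 in the cortex. Without either cortical suspension in turn the counts stayed at 0 in the fits by subtype and of 8 sums.

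For the 24 leading genes, Agt, Unc13c and Slc1a3, no direction changed under 398 alternative values of the cortical fit with subtypes mixed. The 24 were chosen for the same direction in both suspensions of this fit, so leaving out a suspension could hardly turn them. The other settings used the same cells. The fit by subtype is not among the 398 values, and there Clu, Cst3 and Slc1a3 were at -0.004, -0.02 and -0.003. Within AST3, 2 directions changed: Malat1 ran from -0.26 without cortex replicate 2 to 0.064 without cortex replicate 1, and Unc13c from -1.15 to 0.026. The cause was not tested. The median share of ribosomal protein reads, 0.0105 percentage points higher with Gfap, ran from -0.0166 without cortex replicate 1 to 0.0375 without cortex replicate 2. Shares of cells with Gfap were 18.0 to 23.3% over limits of 1, 10 and 100 counts, with and without thinning.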
